A study of Homo sapiens with 14 samples.

Results

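Xenografts grown from control UMUC3 cells that had been exposed to cigarette smoke medium were compared with xenografts of the same control cells from regular medium. UMUC3 is a human bladder cancer line of mesenchymal type, and the tumours were grown in mice. The libraries were chosen by their titles: 4 control libraries after smoke medium (control after CSM, 10% CSM) and 3 control libraries from regular medium, 7 of the 14 libraries in the series. All 7 carried a control short hairpin RNA and no knockdown. The other 7 were libraries of FASN knockdown tumours after CSM (n = 4) and in regular medium (n = 3), and they entered the model fit. The cells met CSM only before engraftment, as far as the labels say, so the comparison asks which differences in RNA remained in the grown tumour. The labels do not give how the CSM was made, how long the cells were exposed, the mouse strain or how many animals were used. Nor do they tie each library to an animal of its own, so the p-values here cover library-to-library spread, some of which may be technical.

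Tobacco smoke carries polycyclic aromatic hydrocarbons, aldehydes, metals and oxidants, and it is the main known risk factor for bladder cancer. Aromatic hydrocarbons bind the aryl hydrocarbon receptor, which then switches on CYP1A1, CYP1B1 and its own repressor AHRR. Oxidants and electrophiles release the transcription factor NRF2 from KEAP1 and raise genes of glutathione, thioredoxin and quinone metabolism, while DNA damage raises the targets of p53. These programmes are known mostly from cells with the smoke components still present.

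The summed counts ran from 34374093 to 45209466 in the CSM libraries and from 36784659 to 43452910 in the regular-medium libraries. 7SL, the RNA core of the signal recognition particle, took 4.20% to 16.3% of the counts after CSM, highest in replicate 3, and 6.35% to 9.38% in regular medium. Levels correlated between libraries at r from 0.969 to 0.988 across the groups (12 pairs, median 0.977), from 0.962 to 0.984 within CSM and from 0.971 to 0.985 within regular medium. The 3 ranges overlapped. These correlations run across genes, which are not independent replicates. VIM was at 2171 to 2599 CPM after CSM and 1586 to 2299 CPM in regular medium. KRT18 was at 168 to 214 CPM and 148 to 181 CPM, and KRT8 at 82.2 to 98.4 CPM and 72.1 to 96.5 CPM. KRT7 was low, at 1.73 to 4.12 CPM and 1.95 to 3.21 CPM. KRT19 reached 0.145 CPM and 0.136 CPM at most, and EPCAM 0.0578 CPM and 0.0678 CPM. These levels fitted a mesenchymal tumour line that keeps KRT8 and KRT18 but little of the other epithelial markers. The urothelial markers were low, with UPK3A listed at 0 in all 7 libraries, GATA3 at 0.596 to 2.42 CPM after CSM and 0.631 to 1.97 CPM in regular medium, and PPARG at 2.57 to 6.01 CPM and 2.42 to 3.97 CPM. UPK1B was at 0.652 to 2.25 CPM after CSM and 1.32 to 2.11 CPM in regular medium. Levels are CPM (scaled counts of a gene relative to the library total), on totals scaled by the trimmed mean of M values unless TPM is named, and a log2 fold change is always CSM over regular medium.

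No gene passed the test between CSM and regular medium. Of 22560 genes tested with edgeR's quasi-likelihood test and Benjamini-Hochberg adjustment at 0.05, 0 were called (0%). At an unadjusted p below 0.05 there were 316 genes (1.4%), 153 with a higher level after CSM (0.678%) and 163 with a lower one (0.723%). DESeq2 called 6 genes (0.0266%), 4 of which had at least 1 library at 0, and had 424 genes at an unadjusted p below 0.05 (1.88%). With no filter on low counts edgeR called 62 of 43484 genes (0.143%, with 2.53% at an unadjusted p below 0.05), 30 higher and 32 lower, of which 30 had at least 1 library at 0. Among the 62 were STON2, PCDH19, LAMA1, TGFA, TP63, CALB2, RSAD2, OAS2, CMPK2, CDKN1A, BBC3 and HSPA1A. On the 7 control-cell libraries alone edgeR called 0 of 20640 genes, with 2.03% at an unadjusted p below 0.05, and DESeq2 called 3 (0.0145%), with 2.56%. In the fit of all 14 libraries the groups did not overlap for 919 genes (4.07%), 432 higher (1.91%) and 487 lower (2.16%). The median log2 fold change over all genes was 0.01, 51.5% of the genes had a positive one, and 93.1% lay between -1 and 1. Among the 13845 genes with a mean of at least 2 CPM, the 95% interval of 69.8% lay wholly between -1 and 1, so a change of 2-fold or more was outside the interval for those genes. For the others the interval reached or passed a 2-fold change in at least 1 direction, at a biological coefficient of variation of 0.444.

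**Figure D1:**
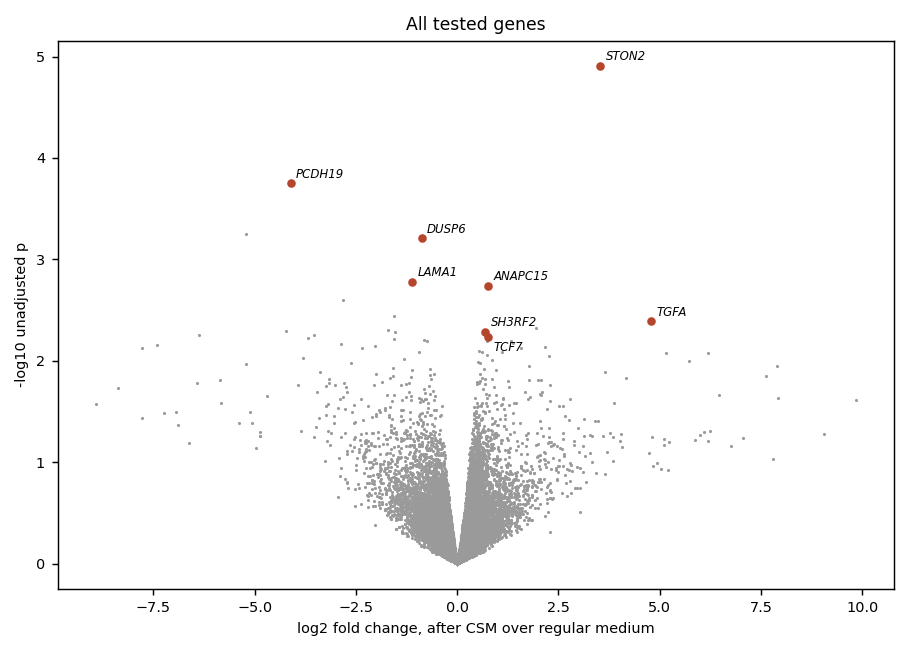
Each point is 1 of the 22560 genes tested, with the log2 fold change of CSM over regular medium on the horizontal axis and -log10 of the unadjusted edgeR p on the vertical axis. The 8 labelled points are named genes with the smallest p whose groups do not overlap, and STON2 at 3.53 stands highest. No gene passed the adjusted threshold.

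The gene with the smallest p was STON2, which encodes stonin 2, an adaptor for the endocytosis of synaptic vesicle proteins. STON2 (ENSG00000140022.14, chromosome 14, 81260656 to 81436465, minus strand, GRCh38) had 4.57, 3.23, 5.53 and 9.91 CPM in the CSM libraries, against 0.746, 0.563 and 0.184 CPM in regular medium. Every CSM library was above every regular-medium library. The log2 fold change was 3.53 (SE 0.56, 95% interval 2.34 to 4.72, adjusted p = 0.277 by edgeR), and it did not pass. DESeq2 gave STON2 an adjusted p of 1.03e-07, and the value lay between 3.12 and 3.96 when any 1 of the 7 libraries was left out. Salmon split the STON2 reads differently by library. Transcript STON2-201 was listed at 5.32 and 10.0 CPM in CSM replicates 3 and 4 and at 0 in the other 5 libraries, while STON2-207 was at 3.74 and 3.31 CPM in CSM replicates 1 and 2 and at 0 in CSM replicates 3 and 4. No isoform of STON2 therefore separated the groups by itself.

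PCDH19 and DUSP6 came next among protein-coding genes of at least 2 CPM without overlap. PCDH19, a protocadherin of cell adhesion on chromosome X (100291644 to 100410273, minus strand), had 0.520, 1.53, 0.908 and 1.18 CPM after CSM, against 5.67, 3.77 and 44.4 CPM in regular medium. All CSM libraries were low, and control replicate 3 alone held most of the RNA. The log2 fold change was -4.11 (SE 0.84, unadjusted p = 0.000178, adjusted p = 1.00 in edgeR's test) and -2.21 without control replicate 3. DESeq2 called PCDH19 with an adjusted p of 0.000373. DUSP6 (ENSG00000139318.8, chromosome 12, 89347232 to 89353271, minus strand) encodes a phosphatase that ERK induces and that switches ERK off. It had 70.5, 88.6, 76.2 and 102 CPM after CSM, against 148, 148 and 170 CPM in regular medium. The libraries of each group lay close together, and the highest CSM value stayed below the lowest regular-medium value. The log2 fold change was -0.88 (SE 0.21, 95% interval -1.32 to -0.44, unadjusted p = 0.000621, adjusted p = 1.00 in edgeR's test), and it lay between -0.98 and -0.82 when any 1 library was left out. Its main transcripts DUSP6-201 and DUSP6-202 had log2 fold changes of -0.86 and -0.96.

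**Figure D2:**
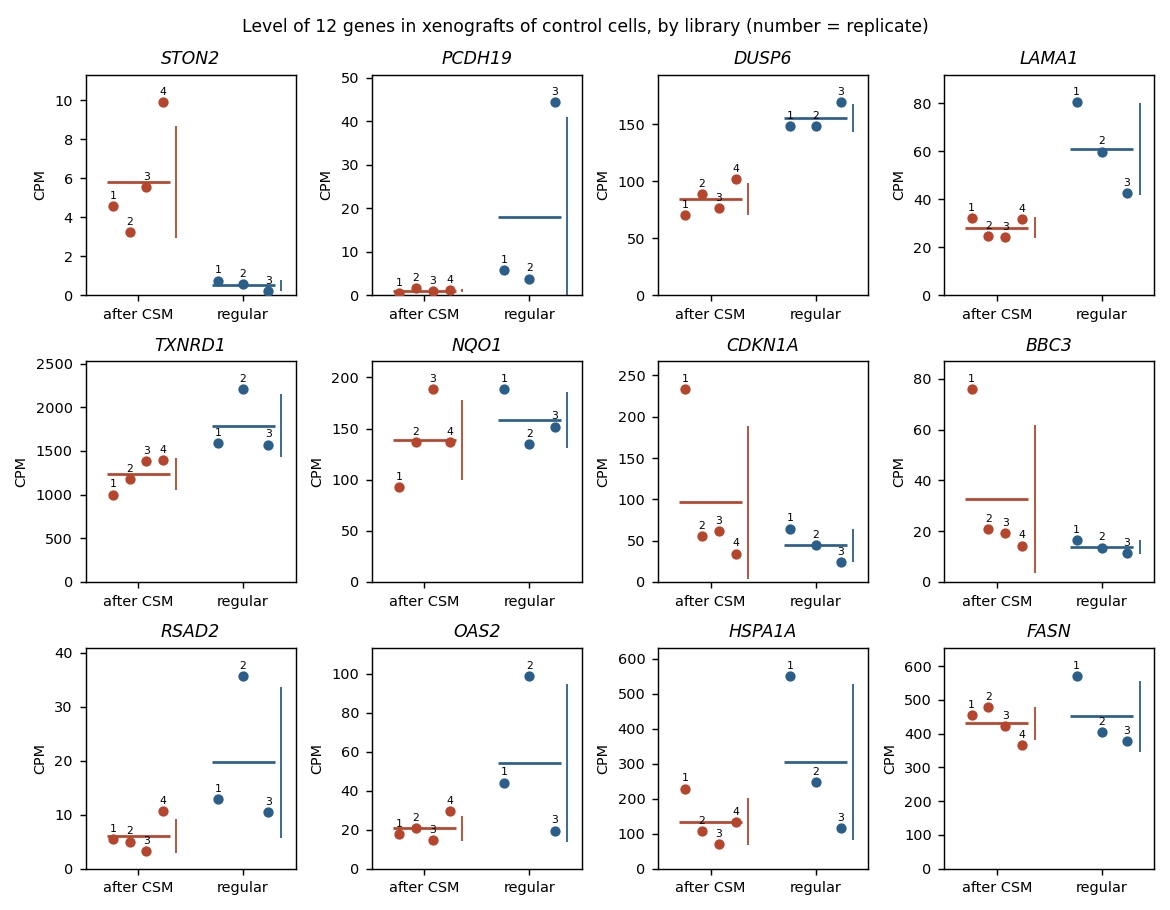
CPM (vertical axis, from 0) of 12 genes in each library, with CSM left and regular medium right in each panel. Points are libraries with their replicate number, horizontal bars are means, and vertical lines are ± 1 SD, cut at 0. STON2, PCDH19, DUSP6, LAMA1 and TXNRD1 do not overlap. CDKN1A and BBC3 stand high only in CSM replicate 1, and RSAD2 and OAS2 stand highest in control replicate 2.

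Genes of the aryl hydrocarbon receptor differed in sign between CSM and regular medium, and none was called. The promoters of its classical targets are shown because the receptor and its partner ARNT bind DNA at the core GCGTG. The windows run from 250 bases before to 50 bases after a gene's start (RefSeq, GRCh38.p14), written 5′ to 3′ on the gene's strand, with GCGTG or its reverse complement CACGC in capitals.
CYP1A1, chr15:74725479-74725778, minus strand: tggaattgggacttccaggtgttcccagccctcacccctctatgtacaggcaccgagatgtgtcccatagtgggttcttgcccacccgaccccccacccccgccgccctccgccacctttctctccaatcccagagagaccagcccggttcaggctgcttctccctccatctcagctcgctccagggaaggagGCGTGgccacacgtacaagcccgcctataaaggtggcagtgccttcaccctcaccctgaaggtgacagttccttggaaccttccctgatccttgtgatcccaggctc
AHRR, window 1, chr5:321464-321763, plus strand: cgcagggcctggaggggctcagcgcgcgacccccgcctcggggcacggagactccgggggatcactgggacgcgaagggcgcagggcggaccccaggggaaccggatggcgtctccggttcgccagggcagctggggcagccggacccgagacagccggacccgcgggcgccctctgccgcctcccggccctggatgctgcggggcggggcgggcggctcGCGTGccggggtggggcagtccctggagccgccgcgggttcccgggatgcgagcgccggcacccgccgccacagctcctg
AHRR, window 2, chr5:322360-322659, plus strand: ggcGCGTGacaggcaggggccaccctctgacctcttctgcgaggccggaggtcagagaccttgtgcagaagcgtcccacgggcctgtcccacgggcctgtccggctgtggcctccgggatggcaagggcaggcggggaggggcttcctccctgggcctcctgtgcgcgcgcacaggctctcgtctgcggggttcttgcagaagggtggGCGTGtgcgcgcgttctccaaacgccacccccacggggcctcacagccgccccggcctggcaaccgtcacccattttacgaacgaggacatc
TIPARP, window 1, chr3:156674340-156674639, plus strand: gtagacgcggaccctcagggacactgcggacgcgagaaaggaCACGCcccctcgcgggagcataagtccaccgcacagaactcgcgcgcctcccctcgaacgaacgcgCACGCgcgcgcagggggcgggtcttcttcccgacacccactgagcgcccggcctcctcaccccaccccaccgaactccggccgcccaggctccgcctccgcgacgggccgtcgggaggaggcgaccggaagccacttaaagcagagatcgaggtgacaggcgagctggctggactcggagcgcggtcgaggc
NQO1, chr16:69726511-69726810, minus strand: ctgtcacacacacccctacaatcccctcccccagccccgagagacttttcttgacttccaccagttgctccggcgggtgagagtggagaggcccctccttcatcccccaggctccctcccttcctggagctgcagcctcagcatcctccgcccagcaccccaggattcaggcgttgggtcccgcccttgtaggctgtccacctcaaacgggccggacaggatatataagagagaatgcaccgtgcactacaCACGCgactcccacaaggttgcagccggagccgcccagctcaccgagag
Of 35116 such windows of all genes, 36.5% held the core on either strand, and 10 of the 18 windows of list members did. Counted by gene, 40.6% of 27305 genes had it in at least 1 window, as did 8 of the 13 list members with a window. TIPARP has 2 further windows, not shown, with no match. Such a match is a description of the letters, not a binding site.

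CYP1A1, the enzyme that oxidises aromatic hydrocarbons and carries the single match shown above, had 1, 4, 0 and 5 counts after CSM, against 11, 9 and 3 counts in regular medium. CYP1B1, its relative with a wider tissue range, had 1, 1, 8 and 3 counts after CSM, against 1, 1 and 5 in regular medium. Both were too low to be tested, and neither enzyme exceeded 11 counts in any of these 7 libraries. AHRR, the repressor of the receptor, had 0.983, 2.19, 0.822 and 1.44 CPM after CSM, against 2.24, 2.23 and 0.815 CPM in regular medium, and the groups overlapped. Its log2 fold change was -0.37 (SE 0.51, 95% interval -1.46 to 0.72). TIPARP, a mono-ADP-ribosyltransferase that the receptor induces and that feeds back on it, had 8.64, 7.78, 10.8 and 5.94 CPM after CSM, against 9.99, 9.66 and 5.18 CPM in regular medium. The means were 8.29 ± 2.01 (SD, n = 4) and 8.28 ± 2.69 (SD, n = 3), and the 95% interval of the log2 fold change was -0.76 to 0.76. AHR itself had 4.34, 6.02, 4.48 and 3.87 CPM after CSM, against 7.71, 10.5 and 1.95 CPM in regular medium. Of the 10 list members tested, 4 had a positive log2 fold change, and the median was -0.23, against 0.01 for all genes. Without control replicate 1 the median was -0.01 with 5 of 10 positive, and without control replicate 2 it was -0.13.

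Targets of NRF2 stood level as a list, and the thioredoxin reductase gene stood lower after CSM in every library. TXNRD1 (chromosome 12, 104215779 to 104350305), which keeps thioredoxin reduced, had 1001, 1174, 1379 and 1393 CPM after CSM, against 1589.6, 2211 and 1572 CPM in regular medium. The groups did not overlap, but the log2 fold change of -0.53 (SE 0.35, 95% interval -1.28 to 0.22) did not pass. NFE2L2, which encodes NRF2, had 69.0, 60.0, 61.6 and 71.5 CPM after CSM, against 74.1, 88.3 and 97.5 CPM in regular medium. These values did not overlap either (log2 fold change -0.40, SE 0.17, unadjusted p = 0.0343 in edgeR's test). MAFG, a small MAF protein that pairs with NRF2 on DNA, is not in the list. It had 55.0 to 70.2 CPM after CSM and 72.7 to 116 CPM in regular medium (log2 fold change -0.68, SE 0.24). NQO1, the quinone reductase, had 92.8, 136, 188 and 137 CPM after CSM, against 189, 135 and 152 CPM in regular medium, with a log2 fold change of -0.19 (SE 0.28). HMOX1, which degrades haem, was highest and lowest in CSM libraries, at 267, 99.2, 52.6 and 37.2 CPM, against 107, 85.4 and 131 CPM in regular medium. Without CSM replicate 1 its log2 fold change was -0.78, against 0.08 with it. GCLM, the modifier subunit of glutathione synthesis, averaged 62.0 ± 17.7 CPM (SD, n = 4) after CSM and 57.3 ± 2.55 CPM (SD, n = 3) in regular medium. SLC7A11, the cystine transporter, averaged 13.5 ± 4.23 CPM (SD, n = 4) and 18.5 ± 2.54 CPM (SD, n = 3). AKR1C1, often the strongest NRF2 target in airway cells, was nearly absent, at 0.0851 to 0.313 CPM after CSM and 0.132 to 0.366 CPM in regular medium. TALDO1, named after its values were seen, went the other way without overlap. It had 63.7, 68.0, 76.6 and 61.3 CPM after CSM, against 59.6, 47.7 and 55.2 CPM in regular medium (log2 fold change 0.32, SE 0.22). Of the 36 NRF2 and oxidative stress genes tested, 1 separated the groups upward and 2 downward, where 1.91% and 2.16% of all genes did. Of the 36, 17 were positive, none was called, and the median was -0.03. The median lay between -0.12 and 0.11 when any 1 library was left out.

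Other defences against smoke components differed little. In the glutathione and ferroptosis list 12 of 22 genes were positive with a median of 0.05, which was -0.14 with 9 of 22 positive without CSM replicate 3. LPCAT3, which puts polyunsaturated fatty acids into phospholipids, averaged 32.0 ± 7.55 CPM (SD, n = 4) after CSM and 20.6 ± 1.71 CPM (SD, n = 3) in regular medium. Of 26 phase II and other detoxification enzymes, 18 were positive (median 0.16, and 0.09 without CSM replicate 4 or 0.25 without CSM replicate 1), and 3 separated the groups upward, where the share over all genes was 1.91%. GSTM4, a glutathione transferase with close relatives, had 20.5, 20.3, 17.2 and 16.4 CPM after CSM, against 14.2, 11.2 and 12.5 CPM in regular medium. Its groups did not overlap (log2 fold change 0.56, SE 0.20, unadjusted p = 0.0136 in edgeR's test). Metallothioneins and metal response genes had 6 of 10 positive and a median of 0.06, which lay between near 0 and 0.18 when any 1 library was left out. MT2A, which binds zinc and cadmium, had 785, 517, 309 and 274 CPM after CSM, against 616, 310 and 148 CPM in regular medium, so the groups overlapped widely. SLC39A8, a zinc and cadmium importer, averaged 3.66 ± 2.00 CPM (SD, n = 4) and 1.83 ± 0.435 CPM (SD, n = 3). MT1X, another metallothionein gene, named after its values were seen, was called by edgeR only with no filter on low counts (log2 fold change 1.16). It had 7970, 1315, 746 and 961 counts after CSM, against 2008, 1231 and 920 in regular medium, so CSM replicate 1 stood far above the rest. No member of these lists was called in the filtered edgeR fit.

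**Figure D3:**
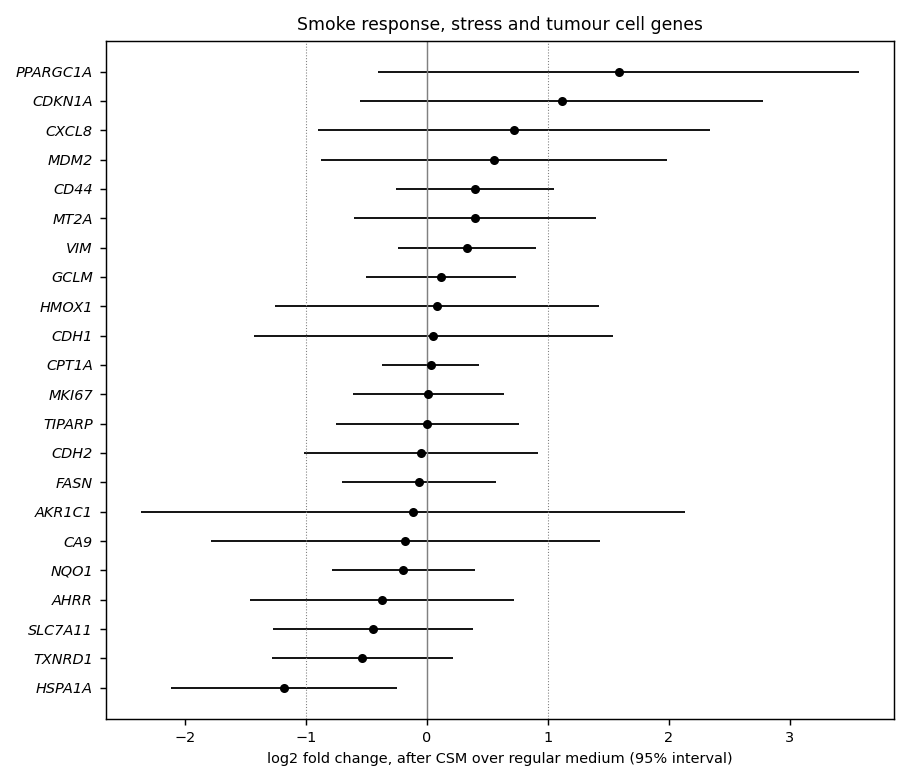
Log2 fold change of CSM over regular medium (horizontal axis) with its 95% interval for 22 genes of smoke response, stress, metabolism and cell identity, from edgeR. All intervals but that of HSPA1A cross 0, and the dotted lines mark -1 and 1. Wide intervals belong to genes at low levels, such as AKR1C1, or with 1 high library, such as PPARGC1A.

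Targets of p53 were high in 1 CSM library and not in the other 3. The mean log2 CPM over the 27 tested targets was 5.56 in CSM replicate 1, 4.49 to 4.77 in the other 3 CSM libraries, and 4.54 to 4.58 in regular medium. CSM replicate 1 held the highest level of the 7 libraries for 19 of the 27 targets, where it did so for 18.2% of all genes. CDKN1A, the cell cycle inhibitor p21, had 234, 55.4, 61.8 and 34.1 CPM after CSM, against 64.4, 44.6 and 24.1 CPM in regular medium. BBC3, the death-promoting protein PUMA, chosen after its values were seen, had 76.0, 20.8, 19.3 and 14.3 CPM after CSM, against 16.5, 13.5 and 11.2 CPM in regular medium. Outside CSM replicate 1, the CSM values of both genes overlapped the regular-medium values. MDM2, which marks p53 for degradation, had 368, 111, 158 and 110.2 CPM after CSM, against 108, 131 and 142 CPM in regular medium. Values this high also occurred without CSM, in FASN knockdown libraries from regular medium. There CDKN1A ran from 41.0 to 314 CPM, BBC3 from 8.48 to 159 CPM and MDM2 from 103 to 400 CPM. In knockdown libraries after CSM the ranges were 19.7 to 139 CPM, 5.23 to 78.7 CPM and 70.8 to 503 CPM. Across the list 25 of 27 genes were positive with a median of 0.30, and without CSM replicate 1 these were 16 of 27 and 0.07. SPATA18, of mitochondrial quality control, was at 0.607 CPM in that library, at 0 in the other 3 CSM libraries, and at 0, 0.0282 and 0 CPM in regular medium. The list of DNA repair and checkpoint genes was close to level, with 35 of 58 positive and a median of 0.04, which was -0.04 without CSM replicate 3. H2AX, the histone that marks broken DNA when phosphorylated, averaged 136 ± 33.9 CPM (SD, n = 4) after CSM and 97.1 ± 17.2 CPM (SD, n = 3) in regular medium. None of these genes was called.

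The same CSM replicate 1 was high for genes of hypoxia, glycolysis, inflammation and immediate early response. Immediate early genes had a mean log2 CPM of 6.5 in that library, against 4.87 to 5.38 in the other CSM libraries and 4.95 to 5.82 in regular medium. NR4A1, an immediate early nuclear receptor, had 85.2, 13.2, 23.0 and 9.07 CPM after CSM, against 26.6, 13.5 and 7.34 CPM in regular medium. Of 29 immediate early genes 18 were positive with a median of 0.31, and without CSM replicate 1 these were 2 of 28 and -0.23, since 1 member was then too low to test. Hypoxia genes had 15 of 26 positive and a median of 0.05, and without that library 4 of 26 and -0.32. The hypoxia median was -0.11 without control replicate 3, and 0.29 with 24 of 26 positive without control replicate 2. HILPDA, a lipid droplet protein induced by low oxygen, had 136, 25.6, 69.6 and 19.7 CPM after CSM, against 31.7, 56.2 and 22.3 CPM in regular medium. CA9, a carbonic anhydrase induced by low oxygen, averaged 6.11 ± 3.14 CPM (SD, n = 4) and 6.91 ± 4.32 CPM (SD, n = 3). In glycolysis 17 of 24 were positive (median 0.15), and 11 of 24 without CSM replicate 1 (median -0.10) or 8 of 24 without control replicate 3 (median -0.08). PGAM1, phosphoglycerate mutase, averaged 480.3 ± 135 CPM (SD, n = 4) and 346 ± 66.2 CPM (SD, n = 3). The NF-kB, cytokine and chemokine list had 18 of 24 positive and a median of 0.21, and medians of -0.06 without CSM replicate 1 and -0.09 without control replicate 3. Its CXCL8, a neutrophil chemokine, had 25.1, 5.30, 30.4 and 5.08 CPM after CSM, against 8.30, 16.4 and 5.26 CPM in regular medium. CCL5, a T cell chemokine, averaged 25.7 ± 9.38 CPM (SD, n = 4) and 40.5 ± 17.6 CPM (SD, n = 3). No gene of these lists was called.

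Interferon-stimulated genes had mostly negative fold changes after CSM, with 1 regular-medium library far above the rest. Of 39 tested genes 2 had a positive log2 fold change, and the median was -0.53. The mean log2 CPM was 4.82, 4.73, 5.00 and 5.07 after CSM, against 5.37, 6.16 and 4.78 in regular medium. Control replicate 2 was the highest and control replicate 3 lay within the CSM range. Control replicate 2 held the highest level of the 7 libraries for 34 of the 39 genes, where it did so for 9.86% of all genes. RSAD2, the antiviral protein viperin, had 5.55, 5.04, 3.26 and 10.6 CPM after CSM, against 12.9, 35.7 and 10.5 CPM in regular medium (log2 fold change -1.69, SE 0.73, unadjusted p = 0.0362 in edgeR's test). OAS2, a sensor of double-stranded RNA, and CMPK2, a mitochondrial nucleotide kinase, were chosen after their values were seen. OAS2 had 17.9, 20.9, 14.6 and 29.5 CPM after CSM, against 44.2, 98.9 and 19.6 CPM in regular medium, and CMPK2 had a log2 fold change of -1.39 (SE 0.72). Without control replicate 2 the median of the list was -0.13 with 8 of 39 positive, and the log2 fold change was -0.95 for RSAD2 and -0.64 for OAS2. No interferon gene was called.

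Among heat shock genes, HSPA1A, HSPA1B and DNAJB1 had lower means after CSM, with a wide spread among the regular-medium libraries. Other members of the list had positive fold changes. HSPA1A and HSPA1B encode the inducible HSP70 chaperone from near-identical copies on chromosome 6, so the split of reads between them is uncertain. HSPA1A had 229, 106, 69.6 and 133 CPM after CSM, against 551, 248 and 117 CPM in regular medium. HSPA1B had 342, 156, 136 and 211 CPM after CSM, against 757, 414 and 192 CPM. Control replicate 1 was highest for both copies, and control replicate 3 lay within the CSM range. The log2 fold changes were -1.18 (SE 0.44) and -1.11 (SE 0.39), and without control replicate 1 they were -0.42 and -0.50. DNAJB1, the partner of HSP70, averaged 142 ± 23.8 CPM (SD, n = 4) and 222 ± 90.0 CPM (SD, n = 3). Of 21 heat shock genes 8 were positive with a median of -0.20, and BAG3 and HSPA4L, chosen after their values were seen, had log2 fold changes of 0.16 and 0.50. The list's median was -0.41 without CSM replicate 3 and -0.35 without CSM replicate 4, and -0.08 without CSM replicate 1. The unfolded protein and integrated stress response list had 19 of 31 positive and a median of 0.02, which lay between -0.17 and 0.08 when any 1 library was left out. ERN1, the sensor IRE1, averaged 34.2 ± 5.72 CPM (SD, n = 4) after CSM and 42.7 ± 2.42 CPM (SD, n = 3) in regular medium, without overlap (log2 fold change -0.32, SE 0.18). None passed the test.

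**Figure D4:**
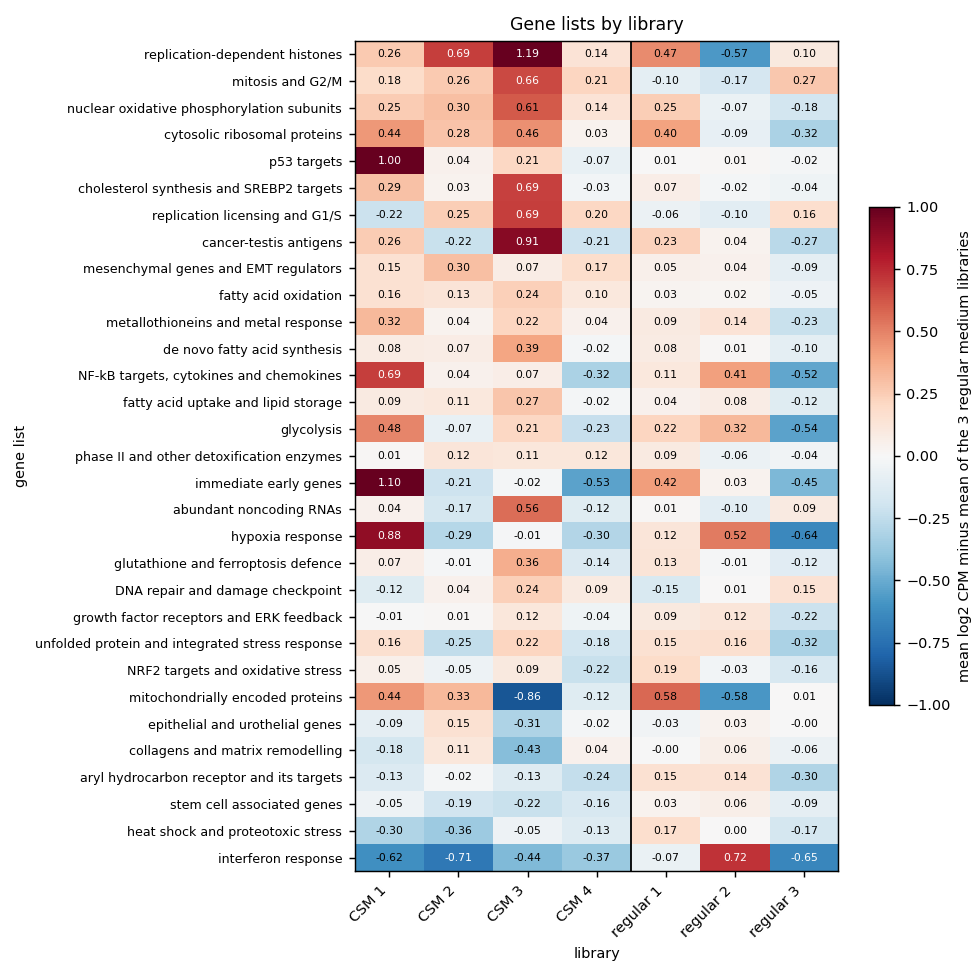
Mean log2 CPM of the tested members of 31 gene lists (rows) in each library (columns, CSM left of the line, regular medium right), minus the mean of the 3 regular-medium libraries. Colour and number give that difference. CSM replicate 1 stands out in p53 targets, immediate early genes and hypoxia, CSM replicate 3 in histones, and control replicate 2 in interferon genes.

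FASN, the fatty acid synthase targeted in the rest of the series, was at the same level in both media within the spread. FASN (ENSG00000169710.9, chromosome 17, 82078333 to 82098332, minus strand) had 456, 479, 423 and 366 CPM after CSM, against 571, 404 and 379 CPM in regular medium. All 7 values were far above the 99.9 to 132 CPM of the knockdown libraries in regular medium, as the labels of control cells require. The means were 431 ± 48.9 CPM (SD, n = 4) and 451 ± 104 CPM (SD, n = 3), and an exact two-sided permutation test gave p = 0.8, where 4 against 3 libraries allow no p below 0.0571. The log2 fold change was -0.07 (SE 0.30, 95% interval -0.70 to 0.57). Of 20 genes of de novo fatty acid synthesis 15 were positive with a median of 0.18, which was 0.06 with 13 of 20 positive without CSM replicate 3. SLC25A1, which exports citrate from mitochondria for that pathway, had 63.8, 80.0, 76.8 and 60.9 CPM after CSM, against 57.3, 56.7 and 50.7 CPM in regular medium. The groups did not overlap, and the log2 fold change was 0.36 (SE 0.19). Of the 20 genes 1 separated the groups upward and 1 downward, where 1.91% and 2.16% of all genes did. The log2 fold changes of the list ran from -0.97 to 0.65.

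Most other lipid genes had positive fold changes after CSM, and none was called. In cholesterol synthesis and SREBP2 targets 25 of 26 genes were positive with a median of 0.31, and without CSM replicate 3 these were 17 of 26 and 0.08. Their mean log2 CPM was 5.80, 5.54, 6.20 and 5.48 after CSM, against 5.58, 5.49 and 5.47 in regular medium. EBP, a sterol isomerase, averaged 15.8 ± 4.10 CPM (SD, n = 4) and 8.90 ± 3.79 CPM (SD, n = 3). In fatty acid oxidation 24 of 29 were positive with a median of 0.21, and 19 of 29 without CSM replicate 3 (median 0.13). Here the mean log2 CPM of the list did not overlap, at 4.81, 4.78, 4.89 and 4.76 after CSM, against 4.69, 4.67 and 4.61 in regular medium. Among the 36 lists only this one and the mesenchymal list had means without overlap. Full separation of 4 against 3 libraries, in either direction, has a probability of 0.0571 where groups do not differ. CPT1A, which carries fatty acids into mitochondria, was level at 390 ± 44.1 CPM (SD, n = 4) and 382 ± 28.5 CPM (SD, n = 3), with a 95% interval of the log2 fold change of -0.37 to 0.43. ACAA1, a peroxisomal thiolase, averaged 32.8 ± 5.79 CPM (SD, n = 4) and 25.7 ± 1.19 CPM (SD, n = 3). PPARGC1A, a coactivator of mitochondrial biogenesis, had 46.4, 3.95, 2.21 and 8.42 CPM after CSM, against 8.09, 6.34 and 0.815 CPM in regular medium. Only CSM replicate 1 was high, and without it the log2 fold change was -0.09, against 1.58 with it. Fatty acid uptake and storage genes had 21 of 27 positive and a median of 0.08. Without CSM replicate 3 only 14 of 27 were positive with a median near 0, and without control replicate 1 the median was 0.30 with 17 of 27 positive. PNPLA3, a lipid droplet lipase, had 2.20, 2.74, 3.26 and 2.29 CPM after CSM, against 1.94, 1.66 and 1.82 CPM in regular medium, without overlap.

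Genes of mitosis, replication, ribosomes and respiration had mostly positive fold changes of small size. Among 30 mitotic genes 29 were positive with a median of 0.36. CENPA, the centromere histone, had 27.4, 27.1, 33.3 and 18.2 CPM after CSM, against 17.2, 13.0 and 17.9 CPM in regular medium, and CDCA8, of the chromosomal passenger complex, 45.2, 53, 64.2 and 35.9 CPM, against 31.7, 28.2 and 30.2 CPM. Neither gene overlapped, with log2 fold changes of 0.72 (SE 0.24) and 0.72 (SE 0.23). MKI67, the proliferation antigen Ki-67, was close to level in its mean (log2 fold change 0.01, SE 0.29), with 562, 592, 279 and 564 CPM after CSM, against 420.2, 412 and 655 CPM in regular medium. Its low CSM value was in replicate 3, where most mitotic genes were highest. Of 31 genes of replication licensing and the G1/S step 30 were positive with a median of 0.26. PCNA, the sliding clamp of DNA polymerase, had 89.7, 117, 142 and 87.0 CPM after CSM, against 86.4, 56.5 and 76.8 CPM in regular medium, without overlap. Replication-dependent histones had 52 of 54 positive and a median of 0.56, with H2BC5 at 98.6 ± 18.8 CPM (SD, n = 4) and 70.5 ± 26.6 CPM (SD, n = 3).

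Of 79 cytosolic ribosomal protein genes 78 were positive with a median of 0.29, and RPL27A averaged 268 ± 40.9 CPM (SD, n = 4) after CSM and 185 ± 79.9 CPM (SD, n = 3) in regular medium. Of 68 nuclear subunits of oxidative phosphorylation 65 were positive with a median of 0.32, and 10 separated the groups upward, where 1.91% of all genes did. COX5A, a subunit of cytochrome c oxidase, had 77.2, 66.5, 107 and 79.7 CPM after CSM, against 63.1, 61.5 and 41.0 CPM in regular medium, without overlap (log2 fold change 0.58, SE 0.26). The 13 mitochondrially encoded proteins did not share the direction, with 4 positive and a median of -0.07. That median was 0.44 without control replicate 1 and 0.19 without CSM replicate 3. MT-ND6 had 16.9 to 106 CPM after CSM and 39.0 to 192 CPM in regular medium. No gene of these lists was called.

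CSM replicate 3 was the highest of the 7 libraries for 21 of 30 mitotic genes, 24 of 31 replication genes, 41 of 54 histones and 45 of 68 respiratory subunits, and for 23.0% of all genes. Without it, 25 of 30 mitotic genes (median 0.17), 19 of 31 replication genes (median 0.08) and 45 of 54 histones (median 0.32) were positive. For ribosomal proteins these were 71 of 79 (median 0.20) and for respiratory subunits 58 of 68 (median 0.19). Regular-medium libraries also carried weight. The ribosomal median was 0.14 (66 of 79) without control replicate 3 and 0.52 without control replicate 1, the respiratory median 0.50 without control replicate 1, and the histone median 0.32 without control replicate 2 and 0.89 without control replicate 1. CSM replicate 3 also held the most 7SL and the largest tilt toward short transcripts of the 7 libraries. With genes split into 5 equal bins by effective length, the bin of shortest genes stood 0.56 above that of the longest there on the log2 scale, against 0.06 to 0.17 in the other CSM libraries and -0.09 to 0.17 in regular medium. Over all genes of at least 2 CPM the median log2 fold change was 0.16 in the shortest bin and -0.07 in the longest. The median effective length was 310.2 bases for histones, 443 for ribosomal proteins and 560.2 for respiratory subunits, but 2300.5 for mitotic genes, against 1753 for all tested genes. With the 7SL share as a covariate in the fit, the medians were 0.38 for mitotic genes, 0.31 for replication genes, 0.55 for histones, 0.30 for ribosomal proteins and 0.35 for respiratory subunits. The part of transcript length in these lists was not tested.

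**Figure D5:**
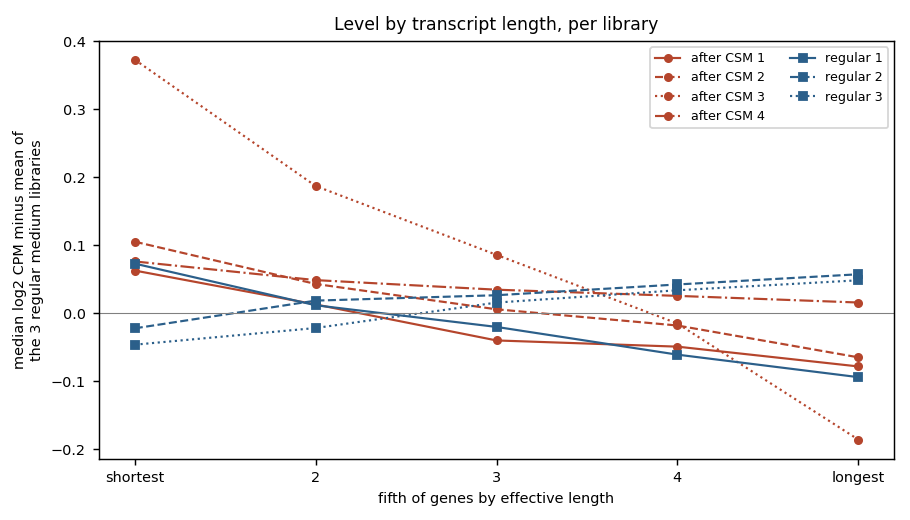
Median of log2 CPM minus the mean of the 3 regular-medium libraries (vertical axis) in 5 equal bins of genes by effective length (horizontal axis), with 1 line per library, CSM in red circles and regular medium in blue squares. CSM replicate 3 is at 0.37 in the shortest bin and -0.19 in the longest, a wider range than any other library.

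Beyond DUSP6, the growth factor list showed no shared shift. Of its 32 tested genes 16 were positive with a median of 0.01, which lay between -0.06 and 0.08 when any 1 library was left out. Genes that ERK induces, named here after their values were seen, differed in sign, with a log2 fold change of -0.42 for HBEGF, -0.18 (SE 0.36) for DUSP4 and -0.16 (SE 0.43) for SPRY4, and of 0.12 (SE 0.22) for ETV5, 0.18 for SPRY1, 0.26 for SPRY2 and 0.34 for PHLDA1. DUSP5, the nuclear relative of DUSP6, had 168, 80.0, 52.7 and 78.1 CPM after CSM, against 132, 125 and 74.1 CPM in regular medium. TGFA, a ligand of the EGF receptor, had 0.289, 1.15, 13.3 and 0.433 CPM after CSM, against 0.181, 0.0563 and 0.158 CPM in regular medium. All CSM values were above all regular-medium values, but CSM replicate 3 alone was above 2 CPM. The log2 fold change of TGFA was 4.79 (SE 1.42, unadjusted p = 0.00407 in edgeR's test) and 2.19 without that library. EGFR had 173 to 213 CPM after CSM and 188 to 245 CPM in regular medium.

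Markers of cell state gave small differences. In the mesenchymal list 19 of 27 genes were positive with a median of 0.18, which was 0.38 without control replicate 1. The mean log2 CPM did not overlap, at 5.00, 5.15, 4.92 and 5.02 after CSM, against 4.90, 4.89 and 4.76 in regular medium. The groups came close, at 4.92 in CSM replicate 3 and 4.90 in control replicate 1. Fatty acid oxidation was the only other of the 36 lists without overlap. MMP2, a gelatinase of matrix breakdown, had 40.1, 68.2, 54.3 and 59.6 CPM after CSM, against 37.8, 33.8 and 28.4 CPM in regular medium, without overlap (log2 fold change 0.74, SE 0.23, unadjusted p = 0.00638 in edgeR's test). VIM had a log2 fold change of 0.33 (SE 0.27), and CDH2, N-cadherin, of -0.05 (SE 0.45). CD44, a hyaluronan receptor that marks basal and stem-like cells, had 459, 490, 498 and 401 CPM after CSM, against 380, 362 and 309 CPM in regular medium, without overlap (log2 fold change 0.40, SE 0.31). Of 15 stem cell associated genes 6 were positive with a median of -0.19, which lay between -0.27 and -0.05 when any 1 library was left out and was nearest 0 without control replicate 1. SOX4, a transcription factor of progenitor cells, had 14.0, 22.1, 32.4 and 34.6 CPM after CSM, against 39.7, 53.5 and 38.8 CPM in regular medium, also without overlap (log2 fold change -0.77, SE 0.40).

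Of 25 epithelial and urothelial genes 12 were positive with a median of -0.03, which lay between -0.11 and 0.04 when any 1 library was left out. CDH1, E-cadherin, was under 1 CPM in all 7 libraries. TP63, a basal transcription factor, had 21.1, 19.2, 65.1 and 10.5 CPM after CSM, against 5.92, 3.16 and 11.7 CPM in regular medium. The groups overlapped only between CSM replicate 4 and control replicate 3, and the log2 fold change was 2.06 (SE 0.95, unadjusted p = 0.0457 in edgeR's test). Collagens and matrix genes had 17 of 43 positive and a median of -0.15, which was -0.07 without CSM replicate 3. LAMA1, the alpha chain of laminin-111 of basement membranes (chromosome 18, 6941744 to 7117814), had 32.0, 24.4, 24.1 and 31.7 CPM after CSM, against 80.4, 59.7 and 42.4 CPM in regular medium. Every CSM library was below every regular-medium library (log2 fold change -1.12, SE 0.29, 95% interval -1.74 to -0.49, unadjusted p = 0.00167 in edgeR's test). Cancer-testis antigens had 8 of 13 positive and a median of 0.26, which was -0.03 without CSM replicate 3 and 0.51 without control replicate 1. SPANXA1, 1 of several near-identical copies whose reads cannot be told apart, averaged 11.0 ± 5.26 CPM (SD, n = 4) and 5.52 ± 1.25 CPM (SD, n = 3). Abundant noncoding RNAs had 12 of 16 positive and a median of 0.18, which was -0.26 without CSM replicate 3. RPPH1, the RNA of ribonuclease P, had 28691 CPM in CSM replicate 3 and 8388 to 11235 CPM in the other 6 libraries.

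The remaining genes named for the smallest p without overlap were spread over many functions. Higher after CSM were ANAPC15, a subunit of the anaphase-promoting complex, with 25.9, 27.7, 25.7 and 23.4 CPM, against 18, 13.4 and 13.8 CPM in regular medium (log2 fold change 0.77, SE 0.20). SH3RF2, which restrains JNK signalling, had 55.3, 61.8, 61.4 and 66.7 CPM, against 42.9, 35.2 and 35.5 CPM. TCF7, a Wnt transcription factor, had 10.6, 19.8, 18.3 and 12.9 CPM, against 9.81, 8.20 and 9.21 CPM. Among these 3 genes the groups came closest for TCF7, between CSM replicate 1 and control replicate 1. CALB2, the calcium-binding protein calretinin, averaged 21.9 ± 10.0 CPM (SD, n = 4) after CSM and 7.36 ± 1.94 CPM (SD, n = 3) in regular medium, and TNFRSF11A, the receptor RANK, 61.4 ± 9.93 CPM and 39.8 ± 4.42 CPM. NRSN2 and PRKCH, a protein kinase C, had log2 fold changes of 0.55 (SE 0.18) and 1.10 (SE 0.36).

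On the lower side, FHAD1 had 9.25, 11.2, 11.7 and 16.3 CPM after CSM, against 20.6, 23.6 and 19.9 CPM in regular medium. SRGAP1, which restrains CDC42 in Slit-Robo signalling, had 129, 129, 98.9 and 138 CPM after CSM, against 182, 196 and 163 CPM. HRK, a death-promoting BCL2 relative, averaged 5.18 ± 0.648 CPM (SD, n = 4) and 8.19 ± 1.96 CPM (SD, n = 3). The gap between the means was larger than the SD of either group for these 3 genes. Their choice for groups without overlap makes such a gap likely, so it adds no support. SOCS7, MYH7B, ZNF354B, MORN3 and ADRA2C had log2 fold changes between -0.81 and -0.57. THSD7B, chosen after its values were seen because DESeq2 on the 7 libraries alone called it, had 1.04, 1.53, 0.908 and 0.505 CPM after CSM, against 3.84, 3.30 and 4.05 CPM in regular medium. Its log2 fold change was -1.90 (SE 0.81, adjusted p = 1.00 in edgeR's test, and adjusted p = 0.0379 in DESeq2 on those 7 libraries).

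Most markers of host cells averaged below 1 CPM over the 7 libraries, though a few stood well above. Below 1 CPM were 8 of 15 fibroblast, 9 of 13 endothelial, 13 of 17 myeloid, 8 of 8 adipocyte and 9 of 10 muscle markers. The tables hold human transcripts only, so mouse cells appear only as far as their reads match human transcripts, and fewer cells of a type cannot be told apart from less RNA per cell. The summed level of 15 fibroblast markers was 61.0 to 99.0 CPM after CSM and 68.8 to 95.3 CPM in regular medium, with 1 marker at 0 in all 7 libraries. The highest fibroblast marker was POSTN, at 22.3 CPM. For 13 endothelial markers the summed level was 57.4 to 105 CPM and 56.5 to 107 CPM, with ENG, which tumour cells also express, the highest at 58.6 CPM. For 17 myeloid and leukocyte markers it was 89.4 to 117 CPM and 83.3 to 131 CPM, with CD68 at 81.1 CPM the highest and 3 at 0. The 8 adipocyte markers summed to 0.698 to 1.97 CPM and 1.21 to 2.19 CPM with 3 at 0, and the 10 skeletal muscle markers to 4.81 to 8.23 CPM and 5.29 to 8.85 CPM. In each of the 5 lists the ranges overlapped. The median log2 fold change was -0.15 over the 10 tested fibroblast markers (4 positive), 0.08 over 8 endothelial (5 positive), -0.03 over 9 myeloid (4 positive), 0.07 over 3 adipocyte (2 positive) and 0.29 over 2 muscle markers (1 positive). Each of these 5 medians changed sign when single libraries were left out. ACTA2, smooth muscle actin, stood at 16.4 ± 7.27 CPM (SD, n = 4) and 8.99 ± 1.21 CPM (SD, n = 3). CDH5 of endothelium, PTPRC of leukocytes and PLIN1 of fat cells were each under 1 CPM in all 7 libraries, and TTN of muscle averaged 5.41 ± 1.5 CPM and 6.41 ± 1.57 CPM.

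No transcript passed the test either. Of 97375 transcripts 0 were called in edgeR's quasi-likelihood test (0%), and 2511 had an unadjusted p below 0.05 (2.58%). The smallest p belonged to TDRKH-202, from a gene of the germline piRNA pathway, with 1.74, 1.15, 1.49 and 1.27 CPM after CSM and listed at 0 in the 3 regular-medium libraries. NUCB2-202, a noncoding transcript of nucleobindin 2, followed with 0.103 to 0.448 CPM after CSM and was also listed at 0 in regular medium. An exact 0 from Salmon can be an allocation to another isoform. DESeq2 called 852 transcripts, and 827 of them were at 0 counts in at least 2 libraries of a group.

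The CSM effect in control cells was also set against that in FASN knockdown cells, which shared none of these 7 libraries. The test of the difference, in the same edgeR fit, called 0 of 22560 genes (0%), with 1178 at an unadjusted p below 0.05 (5.22%), and DESeq2 called 7. In the knockdown cells CSM against regular medium likewise gave 0 calls, with 1504 genes at an unadjusted p below 0.05 (6.67%). STON2 had the smallest p for the difference. Its log2 fold change was -0.80 in knockdown cells, and the difference from control cells was -4.33 (adjusted p = 0.503 in edgeR's test). FASN had a log2 fold change of 1.31 after CSM in the libraries labelled FASN knockdown, where replicate 4 held 479 CPM and so goes against its label. Replicates 1 to 3 held 220, 166 and 301 CPM, each also above the 99.9 to 132 CPM of the knockdown libraries in regular medium. The difference in the FASN log2 fold change from control cells was 1.38 (SE 0.42, adjusted p = 0.942 in edgeR's test). DUSP6 and LAMA1 had log2 fold changes of -0.29 and 0.03 in knockdown cells, with differences of 0.59 and 1.15 that did not pass (adjusted p = 0.945 and 0.942 in edgeR's test). STON2, DUSP6 and LAMA1 were named for their change in control cells, which the difference subtracts. Their choice therefore favoured a difference of the opposite sign, and these values are no separate evidence for one.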

How the data were processed

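RNA from UMUC3 xenografts was sequenced in 14 libraries, and 7 of them are compared here. The authors deposited, per library, a Salmon table with an estimated count, a TPM value and an effective length for each human transcript; the submitters' processing notes name FastQC, cutadapt, Salmon and the build GRCh38, without tool versions. Transcript names carry GENCODE gene identifiers. The estimated counts were summed to genes and rounded to whole numbers. The deposited TPM values entered only an alternative on log2(TPM + 1). The model was fitted with edgeR 4.0.16 in R 4.3.3, with TMM factors, filterByExpr (minimum count 10, minimum total 15), a coefficient for each of the 4 groups over all 14 libraries, the quasi-likelihood test and Benjamini-Hochberg adjustment at 0.05. All 14 libraries were used so that they share 1 estimate of spread (10 residual degrees of freedom). DESeq2 1.42.0 and limma 3.58.1 were alternatives, and scipy 1.17.1 gave the exact permutation test. Scripts were tested on simulated data.

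Totals of 34374093 to 45209466 counts leave the spread between libraries, not counting error, as the main limit for genes above a few CPM. Named genes were 24 index genes (FASN among them), of which CYP1A1 and CYP1B1 were too low to test; in each direction the 12 protein-coding genes of at least 2 CPM with the smallest p whose groups did not overlap; and in each of 36 lists the member with the smallest p. The libraries, lists and genes were chosen with earlier results of these data known. List levels are means of log2(CPM + 0.5). Promoter sequences are from RefSeq (GRCh38.p14). Gene positions are from a separate GENCODE annotation of GRCh38, matched by gene identifier without its version. The version printed with an identifier is that of the deposited tables and need not be the version of the positions. Same-numbered libraries had correlations of deviations of 0.394, -0.150 and 0.147, and differently numbered ones had -0.455 to 0.318. So few pairs cannot decide whether same-numbered libraries belong together. The main fit used no block, and fits with a block were alternatives. The analysis by transcript length was added after seeing the data. Some results of the chosen genes are not reported here.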

Additional observations from a re-analysis of the deposited data

Results flagged for a closer look

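Among 121 values tested in the 4 CSM libraries, 10 had 1 library far from the other 3 by Dixon's criterion. Chance flags about 1 in 20 such groups where the values are chosen beforehand. Some genes here, such as BBC3, were chosen from these data, and some recur in the list means. The rate of 1 in 20 therefore does not measure how many of the 10 are due to chance. CSM replicate 1 stood high for CDKN1A at 233.7 CPM, against 34.1 to 61.8 CPM in the other 3, for BBC3 at 76.0 CPM, against 14.3 to 20.8 CPM, and for PPARGC1A at 46.4 CPM, against 2.21 to 8.42 CPM. The same library was high for SPATA18 at 0.607 CPM, where the other 3 were at 0, and for PTPRC at 0.838 CPM, against 0.199 to 0.289 CPM. It was low for the mean log2 CPM of phase II and other detoxification enzymes at 3.71, against 3.81 to 3.82. CSM replicate 3 stood high for TGFA at 13.3 CPM, against 0.289 to 1.15 CPM, for RPPH1 at 28691 CPM, against 8461 to 10582 CPM, and for the mean log2 CPM of mitotic genes at 6.66, against 6.18 to 6.26. It was low for MKI67 at 279 CPM, against 562 to 592 CPM.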

How the results depend on the processing

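The count of called genes was 0 with edgeR and 6 with DESeq2, 62 with no filter on low counts, 1 with the 7SL share as covariate and 3 with DESeq2 on the 7 libraries alone, which was added after seeing the data. Leaving out 1 library gave 0 calls each time, with 230 to 723 genes at an unadjusted p below 0.05. The replicate block changed no call: 0 genes passed with it, with 225 genes at an unadjusted p below 0.05 over 14 libraries and 802 over 7. For the difference from knockdown cells DESeq2 called 7 genes, and the block and every leave-out 0. For transcripts DESeq2 called 852, and leave-outs gave 0 to 2. The ratio of FASN means lay between 0.884 and 1.10 over the leave-outs. Of 81 named genes 65 kept their sign in every setting run. Signs turned for FASN with the block over 7 libraries (0.0230); for TIPARP with DESeq2 (-0.00642), relative log expression (-0.00620) and upper-quartile factors (-0.0576), no filter (-0.0122), a 2 CPM minimum (-0.0213), protein-coding genes alone (-0.0283), 7 libraries (-0.00384) and 7SL left out (-0.00885); and for HMOX1 with limma (-0.36) and the 7SL covariate (-0.30). They turned for AKR1C1 with the length offset (0.69) and limma (0.0523); for CPT1A with upper-quartile factors (-0.0259), the 7-library block (-0.00228) and limma (-0.0309); and for CA9 with the block (0.19 and 0.0507). MKI67 turned with upper-quartile factors (-0.0297), protein-coding genes (-0.00458), both blocks (-0.0141 and -0.0837), the length offset (-0.21), limma (-0.16) and the 7SL covariate (-0.10). CDH2 turned with the 7SL covariate (0.0191), CDH1 with the length offset (-0.15), limma (-0.0358) and the 7SL covariate (-0.0248), and PTPRC with limma (0.00142). Over the leave-outs the log2 fold change ran from -0.38 to 0.39 for AKR1C1, -0.61 to 0.24 for CA9, -0.35 to 0.52 for CDH1, -0.31 to 0.25 for CDH2, -0.0383 to 0.0890 for CPT1A, -0.19 to 0.16 for FASN, -0.11 to 0.20 for GCLM, -0.78 to 0.40 for HMOX1, -0.0201 to 0.76 for MDM2, -0.11 to 0.26 for MKI67, -0.0933 to 1.68 for NR4A1, -0.0886 to 2.13 for PPARGC1A, -0.0497 to 0.72 for RPPH1, -1.77 to 5.44 for SPATA18 and -0.26 to 0.17 for TIPARP. Except where shown in the results, the cause was not tested. Of 504 list medians under other settings, 25 moved by more than 1 SD.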
